A study of Mus musculus with 6 samples.

Results

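The genes described here encode proteins that release, take up and bind fatty acids. They are Lpl, Gpihbp1, Cd36, Slc27a1, Slc27a2, Slc27a4, Fabp3, Fabp4 and Fabp5, 9 of 19938 genes with a probe set of their own on the array. The members were chosen by function, with earlier results of these data known. Each was read from its single-symbol probe set of the highest mean signal over the 6 arrays. One-colour Affymetrix arrays held RNA from whole aorta of mice 6 weeks old, with 3 arrays labelled Trail knockout and 3 labelled wild type. Both groups carry the strain label C57Bl6/J. The knockout mice lack Trail and came from Amgen, and wild-type mice served as controls. The sources used here give neither the sex of the mice nor whether animals were pooled, nor how the Trail gene was deleted. The labels also do not say whether the samples of a group are separate mice, so the p-values cover only the spread among these 6 samples, which may be technical.

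Blood delivers fatty acids mainly inside triglyceride-rich lipoproteins. Lipoprotein lipase, bound to its carrier on capillary endothelium, releases them there, and the membrane protein CD36 and the fatty acid transport proteins of the Slc27a family help cells to take them up and activate them. Inside the cell they travel on small cytosolic fatty acid binding proteins. Around the aorta the main users are the brown and white adipocytes of the perivascular fat and neighbouring muscle, and endothelial cells and macrophages also use several of these proteins.

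The deleted gene and the tissue markers were examined on every array before the members. Tnfsf10, which encodes Trail, reached 8.42 in log2 signal on the array labelled wild type 1. It gave 4.90 and 4.85 on those labelled wild type 2 and 3, and 5.02, 4.48 and 4.09 on those labelled knockout 1, 2 and 3. The signals labelled wild type 2 and 3 thus lay within the range of the knockout arrays. On every array other than wild type 1 Tnfsf10 lay below 5.86, the mean signal needed to enter the test. Its mean over the 6 arrays, 5.29, did too, so these low values are dim. Which exons were deleted is not stated, so the probe set may lie outside them. The cause of the gap between the arrays labelled wild type was not tested, and all array names below are those of the labels. Smooth muscle markers, which are not particular to the aortic wall, were present on all 6 arrays, with list medians of 9.54 to 10.51 on the log2 scale.

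Markers of neighbouring tissues divided the array labelled wild type 1 from the others. Over 2-fold below every other array there were 10 of 10 skeletal muscle and 10 of 10 squamous epithelium markers. White fat markers (8 of 9), brown fat markers (7 of 10), capillary endothelial markers (4 of 5), general endothelial markers (5 of 10) and cardiac muscle markers (5 of 8) were over 2-fold above every other array there, and 0 of 10 macrophage markers were. Summed over each list, white fat signal was 14.32 on that array and 10.63 to 11.65 on the other 5, and brown fat signal was 14.29 against 10.98 to 11.71. Gpd1, a glycerol phosphate enzyme and the white fat marker of the highest mean signal, gave 12.62 there and 8.33 to 8.74 elsewhere. General endothelial signal was 12.42 against 10.79 to 11.38. Skeletal muscle signal was 9.61 against 14.93 to 15.42, and squamous epithelium signal was 8.33 against 15.12 to 15.30. The array labelled knockout 1 exceeded every other array more than 2-fold for 7 of 8 lung epithelium markers, as did the array labelled knockout 2 for 9 of 9 stomach and pancreas markers. The part of each tissue in the values below was not tested. In bulk tissue, fewer cells of a type and less RNA per cell cannot be told apart.

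Promoter sequences were examined because 7 of the 9 members stood highest, and 2 lowest, on the same array, that labelled wild type 1. Of all probe sets tested, 37.9% were highest and 31.6% lowest there. Windows of 250 bases before the start site were taken from RefSeq (GRCm38.p6), whose table held 5 members: Cd36, Fabp3, Slc27a1, Slc27a2 and Slc27a4. Of these, 3 are shown. Cd36 and Slc27a2 are examples of genes highest on the array labelled wild type 1, and Slc27a4 was lowest there. Capitals mark every match, on either strand, to the nuclear receptor half-site AGGTCA, the GC box GGGCGG, the CCAAT box or the TATA box TATAAA.
Cd36, chr5:17835897-17836146, minus strand: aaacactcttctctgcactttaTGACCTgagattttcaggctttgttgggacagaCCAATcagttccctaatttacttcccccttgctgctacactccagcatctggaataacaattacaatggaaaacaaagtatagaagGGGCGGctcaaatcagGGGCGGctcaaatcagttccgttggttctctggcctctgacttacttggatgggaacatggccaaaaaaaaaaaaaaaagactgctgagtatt
Slc27a2, chr2:126552774-126553023, plus strand: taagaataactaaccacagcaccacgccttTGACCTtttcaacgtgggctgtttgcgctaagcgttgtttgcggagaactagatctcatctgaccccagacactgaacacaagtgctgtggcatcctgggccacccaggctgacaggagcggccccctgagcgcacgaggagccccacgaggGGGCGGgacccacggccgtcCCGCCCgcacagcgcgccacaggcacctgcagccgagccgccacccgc
Slc27a4, chr2:29802384-29802633, plus strand: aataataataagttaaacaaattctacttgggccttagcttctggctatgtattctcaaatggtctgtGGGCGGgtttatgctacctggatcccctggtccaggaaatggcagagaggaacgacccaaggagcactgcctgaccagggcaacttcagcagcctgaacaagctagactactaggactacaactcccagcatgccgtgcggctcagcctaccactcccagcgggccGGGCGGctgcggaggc

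The half-site AGGTCA was present in the Cd36 and Slc27a2 windows, 228 and 220 bases before the start, both on the reverse strand. It was in 2 of the 7 member windows and in 14.02% of all 32851 windows of this length. The Fabp3 window and the 3 Slc27a1 windows did not hold it, although both genes were also highest on the array labelled wild type 1. Whether the half-site bears on the array pattern was not tested. The spaced repeat AGGTCANAGGTCA, which contains the half-site and is the textbook element of the fatty acid receptors called PPARs, matched 0 of the 7 member windows and 11 of all windows. The GC box was present in 5 of the 7 member windows, those of Cd36, Slc27a2 and Slc27a4 and 2 of the 3 of Slc27a1, and in 32.7% of all windows. Fabp3 had none. The share of G and C was 43.2% in the Cd36 window, 64% in that of Slc27a2 and 54.4% in that of Slc27a4, against a median of 52.4% over all windows. A match describes letters only, and binding was not measured.

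Lipoprotein lipase and its carrier were both highest on the array labelled wild type 1. Lpl, the lipase itself, had log2 signals of 10.37, 10.21 and 10.13 on the arrays labelled knockout 1, 2 and 3, and of 12.10, 9.98 and 10.10 on those labelled wild type 1, 2 and 3. The first wild-type array was thus 3.32-fold above the nearest other array, while the remaining 5 spanned 0.38 on the log2 scale. Gpihbp1, which carries the lipase across capillary endothelium and holds it there, gave 6.98, 6.41 and 6.59 in the knockout group and 8.70, 6.37 and 6.68 in the wild-type group. Its value on the array labelled wild type 1 was 3.28-fold above the next, and the remaining 5 spanned 0.61 on the log2 scale.

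Cd36, the membrane receptor for long-chain fatty acids, had the same order of groups. Its log2 signals were 10.69, 10.20 and 10.27 in the knockout group and 12.18, 10.14 and 10.21 in the wild-type group. The array labelled wild type 1 was 2.82-fold above the next highest, which was knockout 1, and the other 4 arrays lay within 10.14 to 10.27.

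The transport proteins of the Slc27a family were unlike each other. Slc27a1, the family member known from fat and muscle, gave 8.50, 7.84 and 7.62 in the knockout group and 9.998, 7.73 and 7.68 in the wild-type group, 2.83-fold above the nearest array on that labelled wild type 1. Slc27a2, a transporter and very long-chain acyl-CoA synthetase best known from liver and kidney, gave 4.77, 4.97 and 4.40 in the knockout group and 9.77, 4.56 and 4.59 in the wild-type group. That is 27.9-fold between the array labelled wild type 1 and the nearest other array. Among 23410 annotated probe sets it ranked 5 by the height of wild type 1 above the highest other array. Gaps below the other arrays were not ranked. On the remaining 5 arrays Slc27a2 lay below 5.86, the mean signal needed to enter the test, so the size of the gap rests on dim values. Of the 6 liver and kidney markers, only Cyp2e1 was more than 2-fold higher there than elsewhere, with 11.20 against 6.90 to 9.89, while 2 of the 6 stood out in this way on knockout 2. Slc27a4, the family member known from skin and intestine, gave 8.40, 8.26 and 8.49 in the knockout group and 7.38, 8.56 and 8.31 in the wild-type group. Here the array labelled wild type 1 was lowest, 1.84-fold below the nearest other array.

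Among the cytosolic binding proteins the array labelled wild type 1 was highest for Fabp3 and Fabp4 and lowest for Fabp5. Fabp3, the heart and muscle type, gave 8.46, 9.35 and 9.02 in the knockout group and 11.04, 8.84 and 8.88 in the wild-type group, so that the first wild-type array was 3.23-fold above the next. Fabp4, the adipocyte type, also made by macrophages and endothelium, gave 9.68, 9.40 and 8.66 in the knockout group and 12.43, 8.21 and 8.62 in the wild-type group. Its top value was 6.71-fold above the next, and its other 5 values spanned 1.47 on the log2 scale, the widest such span of the 9 genes. Fabp5, the epidermal type, gave 11.37, 11.37 and 11.62 in the knockout group and 9.23, 11.73 and 11.49 in the wild-type group. The array labelled wild type 1 was 4.39-fold below the nearest other array for Fabp5.

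Fabp3 and Fabp5 were each measured by 2 probe sets. The lower-signal one of Fabp3 gave 10.81 on the first wild-type array and 8.31 to 9.11 elsewhere. That of Fabp5 gave 9.14 there and 11.34 to 11.71 elsewhere. Both repeat the pattern of the probe set used. RefSeq lists a pseudogene, Fabp3-ps1, on chromosome 10. Signal of such near-identical copies could be shared, so the Fabp3 values are uncertain to that extent. Copies of Fabp5 were not looked up, so the Fabp5 values may be uncertain in the same way.

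**Figure D1:**
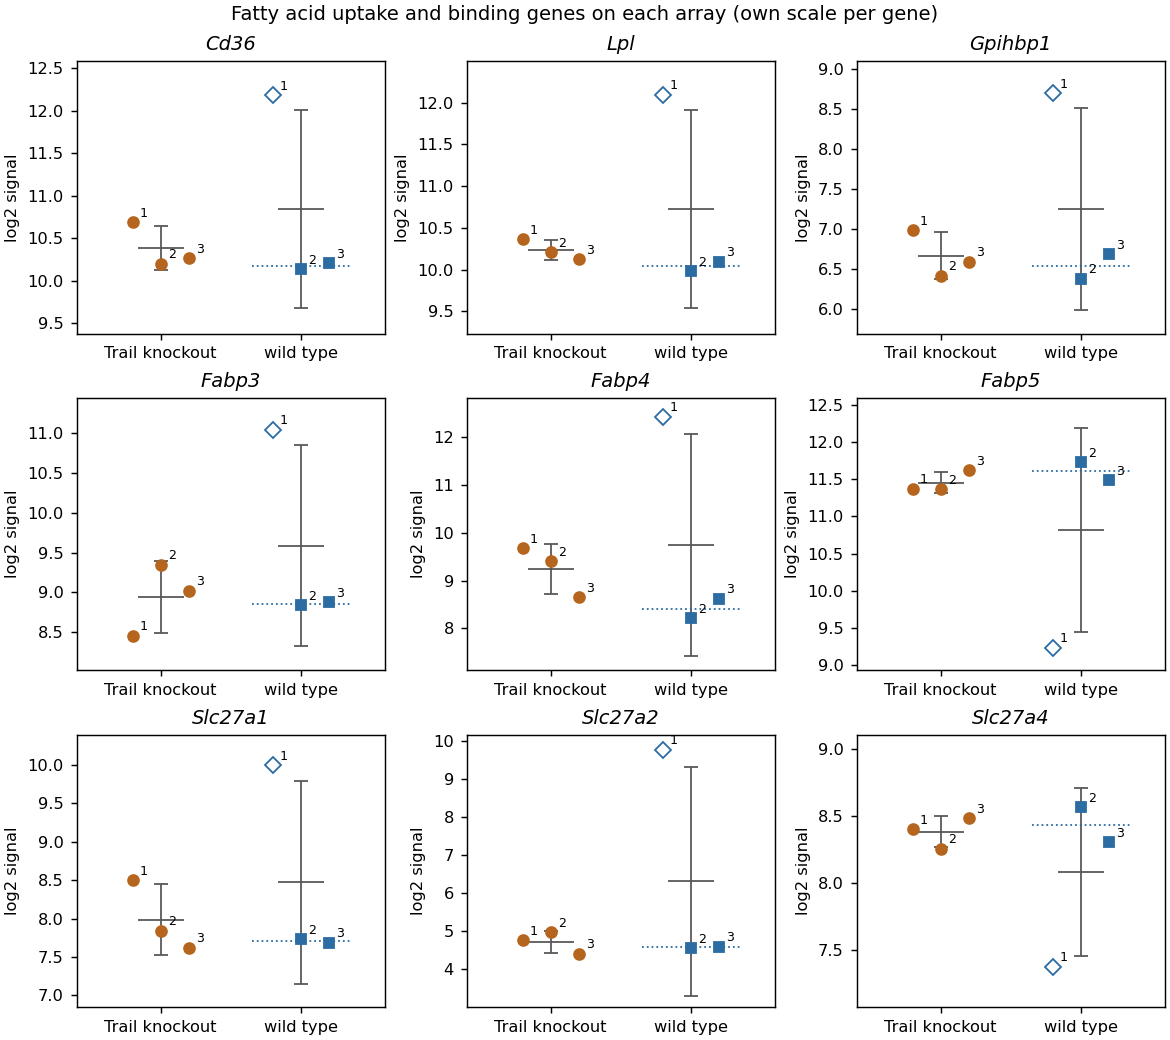
Log2 signal of the 9 genes on each array, with an own scale per gene and the replicate number beside each point. Circles are Trail knockout, squares and the open diamond are wild type, grey bars are the mean and SD of 3 arrays, and the dotted line is the wild-type mean without wild type 1. The open diamond, wild type 1, is the highest point for 7 genes and the lowest for Fabp5 and Slc27a4.

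The count of members was set beside that of all probe sets. The array labelled wild type 1 was over 2-fold above every other array for 7 of 9 members, against 4.6% of the 23410 annotated probe sets. With the filter on low signals, which Slc27a2 did not pass, 6 of 8 members stood so, against 6.27% of 14046 probe sets. It was over 2-fold below every other array for Fabp5 alone among the members, against 7.41% of those probe sets. Wild type 1 was singled out after its values were seen, and the members were chosen with earlier results of these data known. These shares are therefore a description, and no test was made.

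The comparison between the genotypes asked whether loss of Trail changed these genes. None of the 9 passed, and all 9 differences changed sign when the array labelled wild type 1 was left out, as did those of 37.3% of all probe sets tested. In limma, 0 of 8 members in the test had an adjusted p under 0.05, against 0% of 14046 probe sets. At an unadjusted p under 0.05 there were 0 members, against 0.634% (89 probe sets). Slc27a2, outside the filter, was read from the fit without a filter, as below. On 6 arrays 7 members had a lower mean in the knockout group and 2 a higher one, against 56.5% of probe sets lower. Without wild type 1, 7 had a higher mean in the knockout group, against 41.6% of probe sets. The exact two-sided permutation p lay between 0.7 and 1 for the 9 genes, and 3 arrays against 3 cannot go below 0.1. The groups overlapped for all 9 members, while 5.6% of probe sets had groups that did not overlap.

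Mean Lpl signal (± SD of the 3 arrays) was 10.23 ± 0.12 with the knockout label and 10.73 ± 1.19 with the wild-type label, where the 2 arrays other than wild type 1 gave 10.04 ± 0.08. Its difference, knockout minus wild type, was -0.49 (95% interval -1.92 to 0.94) on 6 arrays and 0.19 (-0.08 to 0.47) without wild type 1. Gpihbp1 had means of 6.66 ± 0.29 in the knockout group and 7.25 ± 1.26 in the wild-type group, or 6.53 ± 0.22 without that array, and its difference went from -0.59 (-2.14 to 0.96) to 0.13 (-0.34 to 0.60). Both intervals of each gene included 0.

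Cd36 averaged 10.39 ± 0.26 in the knockout group and 10.84 ± 1.16 in the wild-type group, which became 10.17 ± 0.05 without the array labelled wild type 1. Its difference was -0.46 (-1.88 to 0.97) on 6 arrays and 0.21 (-0.17 to 0.60) on 5. For Slc27a1 the means were 7.99 ± 0.46 and 8.47 ± 1.32, or 7.71 ± 0.03 without that array, and the difference went from -0.48 (-2.16 to 1.19) to 0.28 (-0.32 to 0.88). Slc27a2 had 4.71 ± 0.29 against 6.31 ± 3.00, or 4.57 ± 0.03 without that array, and its difference went from -1.59 (-5.00 to 1.81) to 0.14 (-0.29 to 0.56). The wild-type SD of 3.00 is the largest of the 9 genes. Slc27a4 had 8.38 ± 0.12 against 8.08 ± 0.62, or 8.43 ± 0.18 without that array, and its difference went from 0.30 (-0.49 to 1.09) to -0.05 (-0.38 to 0.27).

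Fabp3 had means of 8.94 ± 0.45 in the knockout and 9.58 ± 1.26 in the wild-type group, or 8.86 ± 0.03 without the array labelled wild type 1. Its difference was -0.64 (-2.24 to 0.96) on 6 arrays and 0.08 (-0.51 to 0.68) on 5. Fabp5 had 11.45 ± 0.14 against 10.82 ± 1.38, or 11.61 ± 0.17 without that array, and its difference went from 0.64 (-1.01 to 2.29) to -0.16 (-0.45 to 0.13). Fabp4 had 9.25 ± 0.53 against 9.75 ± 2.33, or 8.41 ± 0.29 without that array. The Fabp4 difference was -0.50 (-3.34 to 2.33) on 6 arrays and 0.83 (0.11 to 1.56) on 5, and its adjusted p on 5 arrays was 0.997 in limma. Before adjustment Fabp4 was the only member with a p under 0.05 there, ranked 99 among 14046 probe sets, of which 217 (1.54%) had an unadjusted p under 0.05 on the 5 arrays and 0 passed after adjustment. The limma adjusted p was 0.921 to 0.951 for the 9 genes on 6 arrays and 0.997 to 0.999 on 5.

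**Figure D2:**
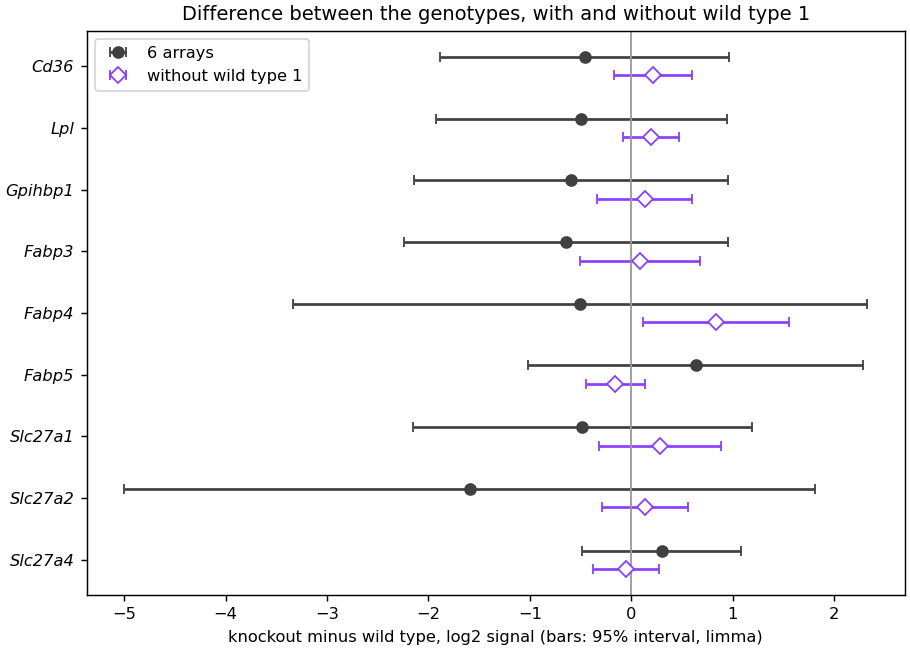
Difference between the group means, knockout minus wild type, in log2 signal for each gene, with 95% intervals from limma. Filled circles use all 6 arrays and open diamonds leave out wild type 1, and each gene's 2 points lie on opposite sides of 0. On 5 arrays the Fabp4 interval, 0.11 to 1.56, is the only one that does not include 0.

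The 5 arrays other than wild type 1 were then set side by side. Without wild type 1, Lpl and Fabp4 were higher on all 3 knockout arrays than on both remaining wild-type arrays, and the other 7 members overlapped. Of 14046 probe sets, 4.13% had all knockout arrays higher and 8.45% all lower. For Lpl the lowest knockout value, 10.13, and the highest wild-type value, 10.10, were nearly equal, and for Fabp4 these values were 8.66 and 8.62.

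The array labelled knockout 1 was the highest of the 5 for Cd36, Lpl, Gpihbp1, Fabp4 and Slc27a1, 5 of 9 members, against 21.3% of probe sets. Relative to the mean of the 5 arrays it stood at 0.39 for Cd36, 0.21 for Lpl, 0.38 for Gpihbp1, 0.77 for Fabp4 and 0.62 for Slc27a1 on the log2 scale. The same array held the lung epithelium markers, with a list median of 7.11 against 5.11 to 5.40 on the other 4. It also had the highest median of the general endothelial markers, 7.71 against 7.15 to 7.38, with both lists' part in these values not tested. Without the arrays labelled wild type 1 and knockout 1, the difference between genotypes was 0.06 for Cd36, 0.02 for Slc27a1, 0.13 for Lpl, -0.03 for Gpihbp1 and 0.62 for Fabp4. Gpihbp1 was also below 0, at -0.02, without wild type 1 and 2.

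Fabp4 followed the white fat markers across the 5 arrays in rank, save for knockout 3 and wild type 3. The list median of white fat was 8.38, 8.29 and 7.45 on knockout 1, 2 and 3 and 6.66 and 7.46 on wild type 2 and 3, beside Fabp4 values of 9.68, 9.40, 8.66, 8.21 and 8.62. Brown fat medians differed less, from 6.21 to 6.36. Summed brown fat signal ran from 10.98 on knockout 2 to 11.71 on wild type 3. Summed white fat signal ran from 10.63 on wild type 2 to 11.65 on knockout 1. Without wild type 1 and one further array, the Fabp4 difference lay between 0.62 and 1.13 and did not pass in limma, with adjusted p of 0.612 to 1.00. The part of fat in the Fabp4 difference was not tested.

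Fabp3 ran another way from Fabp4 on the array labelled knockout 1. It was lowest of the 5 arrays there, 0.45 below their mean, and highest on the array labelled knockout 2, 0.44 above. Without wild type 1 and knockout 2 its difference became -0.12. Fabp5 and Slc27a4, the members that were lowest on wild type 1, were both highest of the 5 on the array labelled wild type 2 and lowest on knockout 2. Their deviations from the mean of the 5 arrays were 0.21 and 0.16 on wild type 2, and -0.15 for each gene on knockout 2. The Slc27a4 difference turned to 0.01 without wild type 1 and knockout 2, and to 0.08 without wild type 1 and 2.

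**Figure D3:**
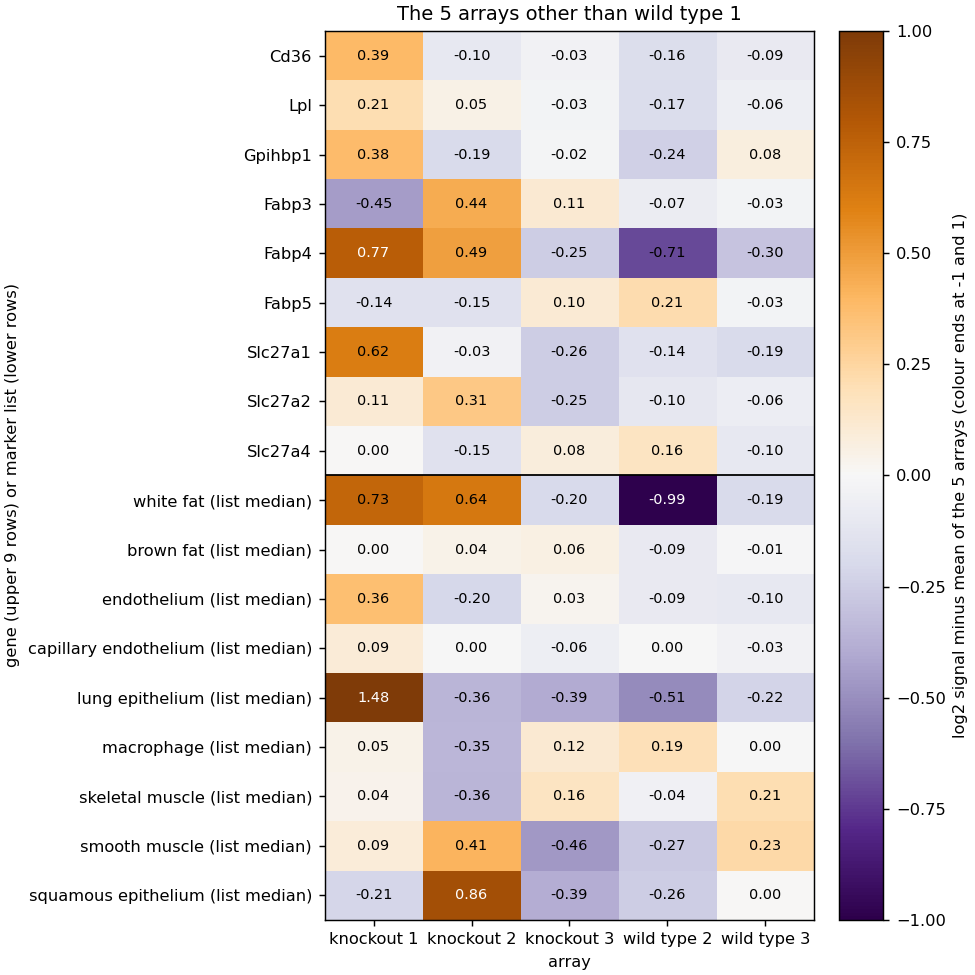
Log2 signal minus the mean of the 5 arrays shown, for the 9 genes (upper rows) and the medians of marker lists (lower rows). The value is printed in each cell. The stomach and pancreas, liver and kidney, and cardiac muscle lists are not shown. The stomach and pancreas median was 12.44 on knockout 2 and 5.05 to 7.17 on the other arrays shown. The largest cells among the genes are Fabp4, 0.77 on knockout 1 and -0.71 on wild type 2, and the white fat list reads 0.73 and -0.99 on the same arrays.

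Other genes of fatty acid handling were grouped by role, 36 genes in 4 lists, of which 31 had a probe set of their own and 22 passed the filter on low signals. None of the 22 passed in limma on 6 arrays or without wild type 1, and none had an unadjusted p under 0.05 in either fit, against 0.634% and 1.54% of all probe sets. On 6 arrays 16 of the 22 were lower in the knockout group, against 56.5% of all probe sets tested. Their median difference was -0.37, against -0.03 over all probe sets tested. Without wild type 1, 6 of 22 were lower and 16 higher, against 41.6% of all probe sets higher, with a median of 0.05 against -0.03. The array labelled wild type 1 was over 2-fold above all others for 11 of the 22, against 6.27% of all probe sets. It was over 2-fold below for 1, Got2, against 7.41%. For the 9 members the medians were -0.49 on 6 arrays and 0.14 on 5. Unlike the 22, they include a gene outside the filter, Slc27a2, read from the fit without a filter.

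Among other binding and transport proteins 3 of 10 passed the filter. Got2, a mitochondrial aminotransferase also found at the plasma membrane as a fatty acid binding protein, reached 8.94 in log2 signal on the first wild-type array and 10.19 to 10.38 elsewhere (difference 0.42, and -0.03 without that array). Dbi, the acyl-CoA binding protein, gave 11.75 there and 10.19 to 10.39 elsewhere (-0.41, and 0.10 without it). Fabp7, the brain type, and Fabp2, the intestinal type, did not pass the filter. Fabp7 gave 7.08 on the first wild-type array and 4.77 to 5.32 elsewhere. Fabp2 gave 5.15 on the array labelled knockout 2, which held the stomach and pancreas markers, and 3.51 to 3.96 elsewhere.

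The long-chain acyl-CoA synthetases trap fatty acids by activating them, and 3 of 5 were measured by probe sets of their own. Acsl5 gave 11.58 on the first wild-type array and 8.71 to 9.16 elsewhere, with a difference of -0.79 on 6 arrays and 0.11 without that array. Acsl4 and Acsl6 differed by -0.12 and 0.09 on 6 arrays, and by -0.05 and -0.01 without it.

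Of the cofactors and inhibitors of lipoprotein lipase and related genes, 7 of 12 passed the filter. Angptl4, a secreted inhibitor of the lipase, gave 9.36 on the first wild-type array and 5.75 to 6.33 elsewhere, so the lipase, its carrier and this inhibitor were all highest there. Its difference was -0.90 on 6 arrays and 0.27 without that array. Vldlr, a receptor for triglyceride-rich lipoproteins, gave 9.86 there and 8.56 to 8.78 elsewhere (-0.39, and 0.01 without it). Apoa5, an activator of the lipase, differed by 0.07 on 6 arrays, and Apoc3, an inhibitor outside the filter, by 0.18.

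All 9 regulators passed the filter. Ppara, the receptor that drives fatty acid oxidation genes, gave 8.98 on the first wild-type array and 6.64 to 6.93 elsewhere (-0.73, and 0.01 without it). Pparg, the master regulator of adipocytes, was named after its values were seen. It gave 7.76, 8.32 and 6.71 on knockout 1, 2 and 3 and 11.13, 6.71 and 6.78 on wild type 1, 2 and 3, with a difference of -0.61 on 6 arrays and 0.85 without wild type 1 (unadjusted p not under 0.05). Meox2, which with Tcf15 controls fatty acid transport genes in heart endothelium, differed by -0.72 on 6 arrays and by -0.36 without wild type 1, and neither value passed. Its groups did not overlap on 6 arrays, as for 5.6% of all probe sets tested. All knockout arrays were also lower without wild type 1, as for 8.45%. Its highest knockout value, 6.82, and lowest wild-type value, 6.85, were nearly equal. Ppard and Rxra differed by 0.16 and 0.05.

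**Figure D4:**
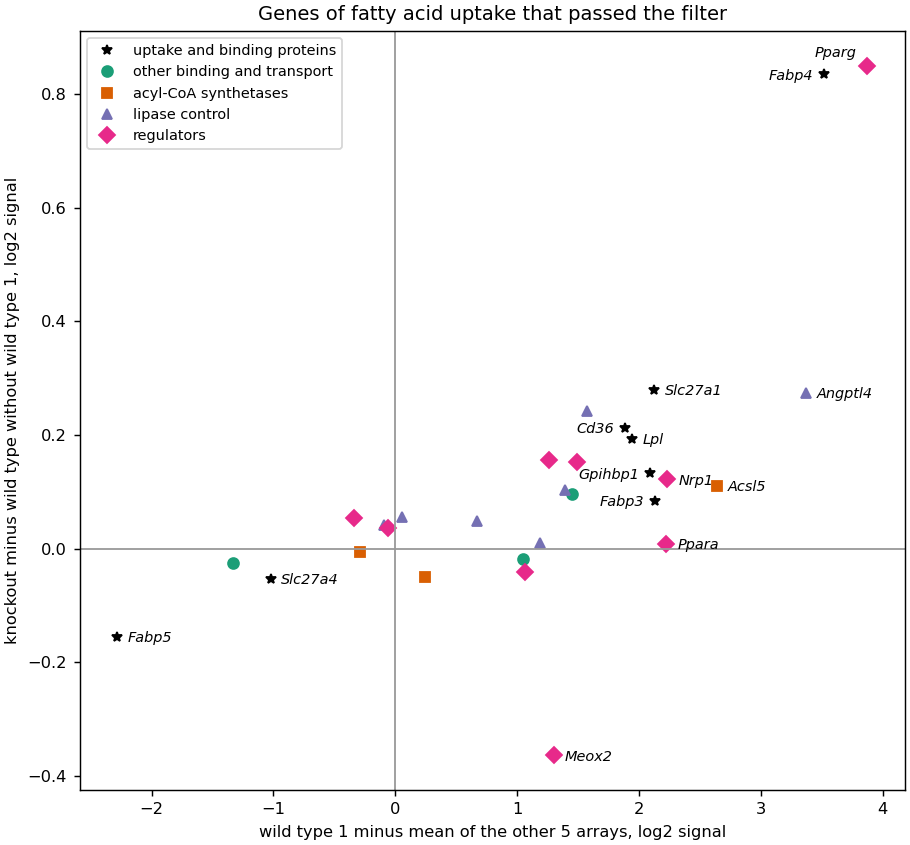
Genes of fatty acid uptake that passed the filter on low signals, 8 members (stars) and 22 other genes by role. The horizontal axis is wild type 1 minus the mean of the other 5 arrays and the vertical axis is knockout minus wild type without wild type 1, both in log2 signal. Fabp4 (3.51 and 0.83) and Pparg (3.87 and 0.85) lie at the upper right, and Fabp5 lies farthest to the left at -2.28.

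For each member the array was searched for the genes with the most similar profile, by the root mean square difference of log2 values centred on each gene's own mean over the 6 arrays. These are descriptions over 6 points that share the array labelled wild type 1 as their extreme. Nearest to Cd36 were Zbp1 (0.04), Rnf125 (0.07) and Adgrl4 (0.07), and nearest to Lpl were Acad10, Cped1 and Cdh2 (each 0.06). Nearest to Gpihbp1 were Sost (0.09), Tapbpl (0.10) and Stmn2 (0.11). Slc27a1 lay nearest to Kdr (0.12), Rnf125 (0.14) and Irs3 (0.15), and Slc27a4 to Lrig3, Cln8 and Gab1 (each 0.04). Slc27a2 lay nearest to Cxcl9 (0.13), Pygl (0.21) and Cidea (0.24). Among the binding proteins, Fabp3 lay nearest to Retsat (0.12), Pde8a (0.15) and Slc40a1 (0.18), and Fabp4 to Klb (0.11), A530016L24Rik (0.15) and Mrap (0.19). Fabp5 lay nearest to AI661453 (0.08), Lmo7 (0.09) and Tmem125 (0.09). Among the members themselves Cd36 and Lpl were the closest pair over 6 arrays (0.10), and Fabp5 and Slc27a4 over the 5 arrays other than wild type 1 (0.08).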

How the data were processed

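Trizol RNA was labelled with biotin as cRNA, per the labels' protocols. The table the authors deposited holds log2 values of 35399 probe sets, with a column for each of the 6 samples. The log base was read from the range, 1.55 to 13.96. The submitters' processing notes name MAS5. The background correction, summary and scaling between arrays are unstated in those sources and could change small differences of dim genes. Array medians lay between 6.34 and 6.47. Each column belongs to a sample, and groups follow the titles.

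Platform annotation names 23410 probe sets, 21789 with 1 symbol and 1621 with several, and the latter name no gene here. Values were fitted in limma 3.58.1 (R 4.3.3) with a variance trend on signal and a threshold of 0.05 on the Benjamini-Hochberg adjusted p, on the 14046 annotated probe sets outside the lowest 40% by mean signal. Code was tested on simulated data. Differences are knockout minus wild type.

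The members and lists were chosen with earlier results of these data known. Named genes were the members, the 2 largest and 2 smallest differences of each of 4 pathway lists, up to 2 top genes per marker list, and 3 nearest profiles per member. Exceptions are named as such. Alternatives were scaling, filter, pseudocount, moderation, weights, block and arrays left out.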

Additional observations from a re-analysis of the deposited data

How the results depend on the processing

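The counts of 0 called probe sets and 0 called members held in limma under every alternative run, also on 9364 to 23410 probe sets. The lowest adjusted p of any member was 0.612, without wild type 1 and knockout 3. Of 137 runs of the member differences that kept wild type 1 at full weight, 137 kept the sign, which the value of that one array fixes, so the count is no measure of stability. With any 1 array left out, or wild type 1 and another, the differences ran from -0.81 to 0.30 for Cd36, -0.86 to 0.25 for Lpl, -1.03 to 0.29 for Gpihbp1, -1.02 to 0.33 for Fabp3, -1.28 to 1.13 for Fabp4, -0.28 to 1.09 for Fabp5, -0.88 to 0.46 for Slc27a1, -2.47 to 0.29 for Slc27a2 and -0.18 to 0.54 for Slc27a4. Array weights, which gave wild type 1 a weight of 0.098, turned the sign for 6 members: Cd36 0.26, Lpl 0.17, Gpihbp1 0.11, Fabp4 0.77, Fabp5 -0.064 and Slc27a1 0.42. Gpihbp1 and Slc27a2 gave no value with the lowest 60% left out. With the replicate block, 0 probe sets passed and the members' adjusted p was 0.972 to 0.986. Deviations of same-numbered arrays from their group means correlated at 0.09, -0.23 and 0.20, and those of unlike-numbered arrays at -0.32 to 0.41. The wild-type mean includes wild type 1, so these values cannot show whether the number marks a pairing. The number of arrays limits the precision.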
